A study of Arabidopsis thaliana with 12 samples.

Results

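Among the Arabidopsis thaliana genes that were most heavily read by RNA-seq, 886 had a flanking window in which almost no read was counted, in wild-type Col-0 or in the xrn3-8 mutant. They were chosen by 2 measured values. The gene held a mean of at least 50 CPM (counts scaled to the library total over nuclear genes) in the 3 Col-0 libraries, and its window held fewer than 10 counts summed over all 6 RNA-seq libraries. Of 36899 nuclear genes counted, 4555 reached this level and 4039 of these had a window, so the near-empty windows made up 21.9% of the windows beside highly expressed genes. The tables hold 33985 windows in all, each named 500 plus a gene identifier. No source used here gives the bounds of a window or says whether it lies before or after its gene. Both values that define the windows describe the choice and support no test.

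XRN3 is a nuclear exoribonuclease that degrades RNA from its 5′ end. When a transcript is cleaved at its polyadenylation site, RNA polymerase II goes on transcribing, and nucleases of this family digest the RNA that still emerges behind the cleavage. This digestion is one of the known routes to transcription termination. Where it is slowed, RNA from beyond the gene can accumulate and may run into the next gene, which is why reads beside a gene are informative in a mutant of XRN3.

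The 2 groups were 3 libraries of wild-type Col-0 and 3 of xrn3-8, each from 21-day seedlings grown on soil. Small RNA was read in 3 libraries per genotype from other plants, 14-day seedlings grown on MS plates. Total RNA depleted of ribosomal RNA was read with a stranded kit, and gene counts per library lay between 61604670 and 79845518. Between 29227897 and 35922818 of these counts per library were over nuclear genes. The replicates are called biological in the series' design text, and the sources do not say what kind of allele xrn3-8 is. XRN3 itself (AT1G75660) held 99.4, 97.0 and 97.4 CPM in Col-0 against 47.8, 46.5 and 42.9 CPM in xrn3-8. Its RNA was therefore lowered and not lost, with a log2 fold change of -1.25 (SE 0.08, edgeR adjusted p = 2.8e-06). A window described here as empty was empty with reduced XRN3 RNA. In whole seedlings, fewer cells of a type and less RNA per cell cannot be told apart. All 5 leaf markers were abundant. Their summed level was lower in every xrn3-8 library, at 12440 to 14370 CPM, against 17810 to 18780 CPM in Col-0, and the libraries did not overlap for RBCS1A, LHCB2.1, RCA and GAPA but did for CA1. The 4 root markers summed to 144 to 277 CPM, nearly all of it from PYK10 (134 to 270.5 CPM), itself a gene of the set. RCI3, AGL42 and SHR lay at or below 8.11 CPM in every library. Of 3 flower markers, PI was higher in xrn3-8 (2.53 to 6.02 CPM, against 0.209 to 0.406 CPM), while AG and AP1 lay at or below 1.08 CPM in every library and were not higher in xrn3-8. The 3 seed markers summed to at most 6.77 CPM, the highest value being that of Col-0 replicate 3. The part of other organs in the results was not tested.

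The near-empty windows were low in both genotypes, and lower in Col-0. Together the 886 windows held 186, 210 and 192 counts in the Col-0 libraries and 694, 694 and 1173 counts in the xrn3-8 libraries. xrn3-8 replicate 3 stood above the other libraries. Relative to the counts of the same genes, this was 0.538, 0.578 and 0.601 window counts per 10000 gene counts in Col-0 against 2.25, 1.77 and 3.14 in xrn3-8. The 3153 windows beside the other highly expressed genes held 14.6, 15.1 and 14.9 per 10000 in Col-0 against 39.9, 38.3 and 47.8 in xrn3-8. The window counts chose both groups, so the gap between them is a description. A window was at 0 in all 6 libraries beside 235 of the 886 genes and at 0 in all 3 xrn3-8 libraries beside 270. All 3 Col-0 libraries were at 0 beside 592. More counts came from xrn3-8 than from Col-0 at 535 windows, fewer at 78, and equal numbers above 0 at 38.

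**Figure D1:**
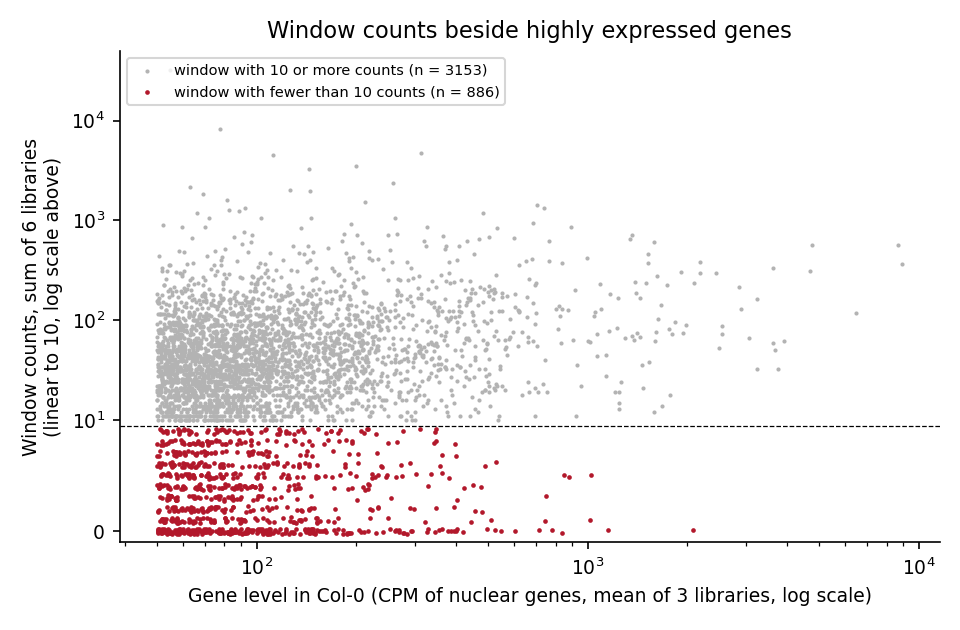
Each point is a nuclear gene of at least 50 CPM in Col-0 that has a window. The x axis gives the gene's mean Col-0 level in CPM on a log scale and the y axis the sum of its window counts over 6 libraries, linear to 10 and logarithmic above, with red points shifted slightly so that they do not hide each other. The 886 red points lie under the limit of 10 counts at levels from 50.1 to 2080 CPM, and the 3153 grey points reach 31780 counts.

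**Figure D2:**
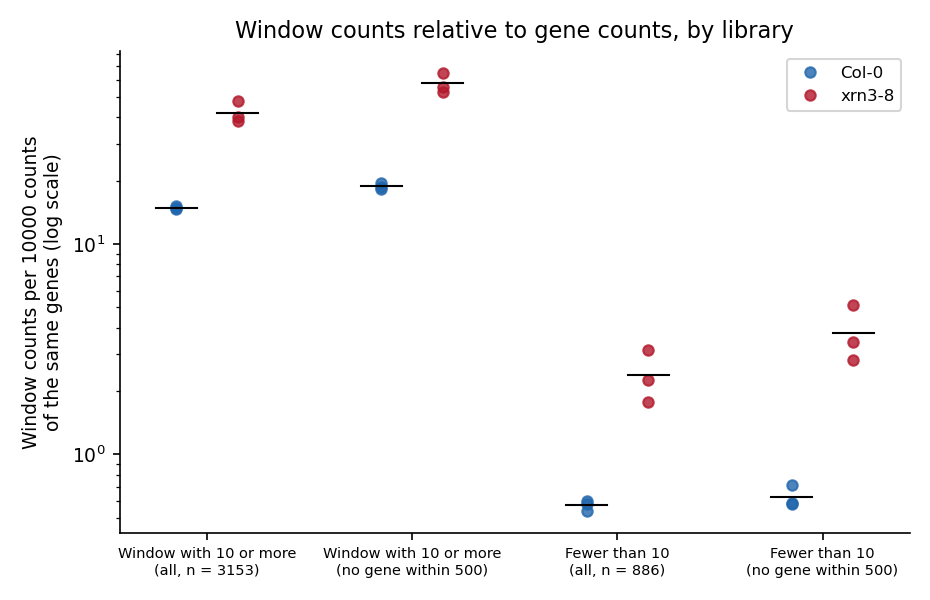
Window counts per 10000 counts of the same genes are shown on a log axis, with 1 point per library and a line at the mean of 3 libraries. Near-empty windows lie between 0.538 and 3.14 and the other windows between 14.6 and 47.8, and within each set all xrn3-8 libraries lie above all Col-0 libraries.

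The limit of 10 counts cuts through a continuous distribution. Sums of 7, 8 and 9 counts were found at 59, 66 and 66 windows, and sums of 10, 11 and 12 counts at 58, 82 and 74. Just inside the limit at a sum of 9 lay POM1, a chitinase-like cell wall gene, the glutathione peroxidase gene GPX1 and AT4G02920. Their windows held 5, 0 and 1 counts in Col-0 against 4, 9 and 8 in xrn3-8. Just outside, at a sum of 10, lay VAR1, a chloroplast FtsH protease, VTC2, an enzyme of vitamin C synthesis, and IMD1, an enzyme of leucine synthesis. Their windows held 3, 0 and 1 counts in Col-0 against 7, 10 and 9 in xrn3-8. In counts these 6 windows can hardly be told apart.

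Distance to the next gene went with an empty window. In the reference annotation of the TAIR10.1 assembly, the nearest annotated gene lay 100 to 199 bases away at 507 highly expressed genes with a window, and 238 of these windows (46.9%) were near-empty. The share was 33.4% at 200 to 299 bases (98 of 293) and 18.1% at 300 to 499 bases (69 of 381). With no annotated gene within 500 bases it was 15.8% (163 of 1034). The windows at 0 in all 6 libraries were more unevenly spread. Of these 235, 142 had their nearest gene at 100 to 199 bases and 7 had none within 500 bases. The median window sum was 11 counts at 100 to 199 bases and 37 counts at 500 bases or more, although the median gene levels were 93.6 and 93.2 CPM.

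Where a gene overlapped another, 16.3% of the windows were near-empty (204 of 1248), and where the nearest gene lay 0 to 99 bases away 19.8% (114 of 576). At these close distances many genes had no window at all. A window was listed for 68.1% of all nuclear genes with a nearest gene at 0 to 99 bases and for 99.7% at 100 to 199 bases. The reference gives no strand, so the distance is that to the nearest gene on either side. In all, 723 of the 886 genes (81.6%) had an annotated gene within 500 bases or overlapping, against 2282 of the other 3153 (72.4%). A window that overlaps a neighbour may lose its reads to the counter, which assigns a read that touches several features to none of them and adds it to a tally of ambiguous reads. How far this sets the low counts was not tested.

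**Figure D3:**
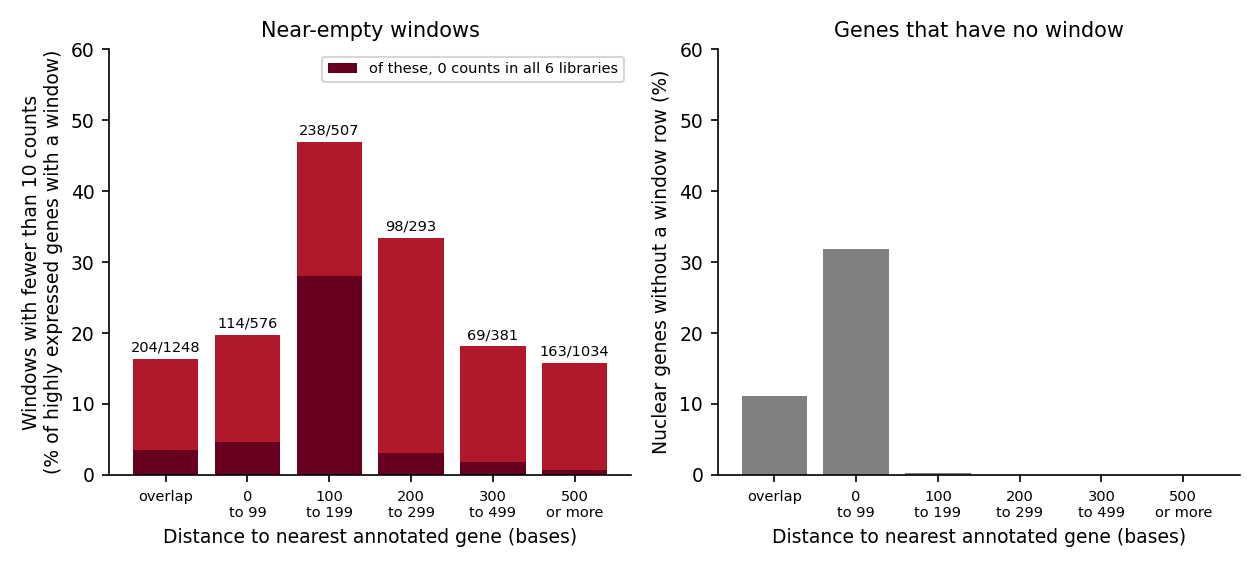
The left panel gives the percentage of windows beside highly expressed genes that hold fewer than 10 counts, by distance to the nearest annotated gene in bases, with the numbers above the bars and the dark part for windows at 0 in all 6 libraries. It peaks at 46.9% for 100 to 199 bases. The right panel gives the percentage of all nuclear genes without a window, which is below 1% from 100 bases on.

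The same gene could also be compared between the tables. One table counts genes beside assembled loci, whose identifiers start with XLOC, and the other counts genes beside windows. A gene that shares reads with an assembled locus can therefore hold more counts in the window table. This was so for 82 of the 886 genes (9.26%) and for 2374 of the other 3153 (75.3%). Among genes with no annotated neighbour within 500 bases it was 10 of 163 (6.13%) and 702 of 871 (80.6%). The genes beside near-empty windows instead lost a median of 0.0919% of their counts in the window table, 784 of 886 being lower there. The assembled loci and the windows rest on the same reads, so this is no independent evidence that reads are missing beside these genes.

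The 10 most heavily read genes with a near-empty window are described by role. Their order follows read counts and not levels per length. SHM1 (AT4G37930), the mitochondrial serine hydroxymethyltransferase of photorespiration, held 2082, 2169 and 1990.5 CPM in Col-0 against 1787, 2015 and 1805 CPM in xrn3-8. Its window was at 0 in every library, against 384933 gene counts, which allows up to 0.0779 window counts per 10000 gene counts. CAT2 (AT4G35090), the leaf catalase that removes photorespiratory hydrogen peroxide, held 1142, 1034 and 1275 CPM in Col-0 against 618, 546 and 527 CPM in xrn3-8, with no overlap. The CAT2 window was also at 0 in all 6 libraries, and the gene overlaps an annotated neighbour. PMDH2, a peroxisomal malate dehydrogenase, stood at 741 ± 17.4 CPM in Col-0 against 517 ± 9.98 CPM in xrn3-8 (SD, n = 3) with 1 window count. Of Calvin cycle and carbon supply genes, SBPASE (sedoheptulose bisphosphatase) held 1014 ± 36.8 and 735 ± 71.5 CPM with 1 window count. CA1, the carbonic anhydrase, had 1022 ± 88.8 and 893 ± 88.9 CPM with 5. The floor of 3 counts is taken over the 6 libraries of a gene, and it covers counting error only.

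The remaining genes of the 10 most heavily read encode chaperones, an RNA-binding protein, a ribosomal protein and a signalling protein. The endoplasmic reticulum chaperone gene SHD held 876 ± 58.8 CPM in Col-0 against 1063 ± 64.3 CPM in xrn3-8, and its window held 0, 0 and 0 counts in Col-0 against 1, 4 and 0 in xrn3-8. CPN60A, a subunit of the chloroplast chaperonin that folds Rubisco, held 749 ± 71.3 and 771 ± 41.5 CPM, with 3 window counts, all in xrn3-8. CRB, a chloroplast RNA-binding protein, held 848 ± 33.2 and 595 ± 39.0 CPM with 5 window counts. RP1, which encodes a ribosomal protein of the large subunit, held 835 ± 10.9 and 865 ± 78.7 CPM with none. RR3 (AT2G41310), a response regulator of cytokinin signalling, held 616, 725 and 1006 CPM in Col-0 against 838, 1074 and 1222 CPM in xrn3-8, again with no window count. RR3 overlaps an annotated neighbour, and reads of overlapping genes may be shared.

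For comparison, the most heavily read genes outside the set had windows above the limit of 10 counts. The window of the chlorophyll-binding protein gene CAB1 held 23 counts in Col-0 against 343 in xrn3-8, against a Col-0 gene level of 8938 CPM. That of RBCS1A, a Rubisco small subunit, held 79 and 492 counts at 8681 CPM. The windows of the light-harvesting genes LHCB5, LHCA4 and LHCB3 held 10 and 108, 160 and 408, and 145 and 165 counts. Relative to their genes these windows were also low. In the same order they held 2.11, 3.67, 1.11, 7.07 and 4.45 counts per 10000 gene counts. The median was 19.8 over the 3153 other windows and 1.58 over the near-empty windows, whose upper quartile was 3.56. By this ratio all of these windows lie within the range of the set, which reaches 10.4. LHCB5 and CAB1 also lie below its upper quartile. All of them are outside the set by the limit on counts. CAB1 and RBCS1A belong to families of near-identical copies, and their counts are uncertain for that reason. The median ratio fell with level, from 19.7 per 10000 at 50 to 75 CPM to 2.56 at 1000 CPM or more, over near-empty and other windows together. Gene counts are the denominator of this ratio. The share of near-empty windows also fell with level, from 26.7% (378 of 1416) at 50 to 75 CPM to 5.19% (4 of 77) at 1000 CPM or more. The fixed limit on counts thus took in more of the genes at lower levels.

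The 163 near-empty windows with no annotated gene within 500 bases lie beside genes whose surroundings hold no other annotated gene at that distance. All 36899 nuclear genes counted were placed in the reference, and the 285 identifiers without a match are not nuclear genes. These 163 windows held 33, 43 and 31 counts in Col-0 against 168, 176 and 304 in xrn3-8. Relative to gene counts this was 0.582, 0.712 and 0.585 per 10000 in Col-0 against 3.41, 2.80 and 5.12 in xrn3-8. The 871 other windows without a near gene held 18.6, 19.5 and 18.3 in Col-0 against 55.9, 52.7 and 65.2 in xrn3-8. Median gene levels were 80.9 CPM for the first and 95.5 CPM for the second.

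CPN60A led these 163 genes, followed by CR88, a chloroplast heat shock protein of the HSP90 family, at 528 ± 41.5 CPM in Col-0 against 605 ± 64.5 CPM in xrn3-8. The CR88 window held 0 counts in Col-0 against 3, 0 and 3 in xrn3-8. GSH1, the first enzyme of glutathione synthesis, held 488 ± 36.8 and 482 ± 35.1 CPM, with window counts of 0, 3 and 3 in xrn3-8. MS2, a methionine synthase, had 1 window count at 443 ± 48.4 and 315 ± 13.3 CPM. LOX3, a lipoxygenase of jasmonate synthesis, had 5. GHS1, a plastid ribosomal protein gene, LIL3:2, a light-harvesting-like gene, PPC1, a phosphoenolpyruvate carboxylase, and GLX1, a glyoxalase, had 4, 2, 8 and 7. CESA2, a cellulose synthase, was at 0 in all 6 libraries with 253 ± 1.76 CPM in Col-0 against 284 ± 28.0 CPM in xrn3-8, which allows up to 0.573 per 10000 gene counts.

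Only 7 of the 163 windows were at 0 in all 6 libraries, and they are named here after their values were seen. Besides CESA2 they were ACA2, a calcium pump gene, WEB1, a gene for chloroplast movement, PLR1, a pyridoxal reductase, the glucosidase gene BGLU33, AT4G36530 and AT2G11910. Their Col-0 levels ran from 176 CPM for ACA2 to 54.2 CPM for AT2G11910. At these lower levels a count of 0 is less informative, since it allows up to 0.871 per 10000 for ACA2 and 2.77 for AT2G11910. The receptor kinase gene B120 is one of 10 further genes without a near neighbour whose windows had counts in Col-0 but none in xrn3-8, with 2, 0 and 2 in Col-0. B120 itself fell in xrn3-8. AT3G29185 had more window counts in Col-0, with 6, and its gene was not called (log2 fold change -0.09, edgeR adjusted p = 0.467). Each of the others had 1 window count in Col-0.

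Grouped by words in their names, most classes had some near-empty windows. The class counts are to be read beside the 21.9% of all highly expressed genes with a window, and their differences from it were not tested. The reference gives no descriptions, so these classes hold few of their true members and may hold genes of other kinds. Shares of small classes are uncertain. Heat shock proteins and chaperones had 9 of 23 windows near-empty, 3 of them at 0 in all libraries. Of 59 photosynthesis genes 5 had a near-empty window, among them SBPASE, the photosystem II assembly gene PSB28 and LQY1, which acts in photosystem II repair. Cytosolic ribosomal protein genes had 5 of 30, led by RP1, RPS6 and RPS15A, and ubiquitin and proteasome genes 10 of 61, led by UPL2, PHO2 and RPN1A. Redox and stress genes had 11 of 63 (CAT2, GPX1 and GSTL3 first), transcription factors 7 of 51 (BTF3, AIB and CCA1) and cell wall genes 4 of 39 (XTH24, CESA2 and XTH7). Genes matched as cytoskeleton had 5 of 22 (TUA4, SAC9 and TUB3), but SAC9 is a phosphoinositide phosphatase gene that entered by its name. Translation factors had 2 of 14 (EIF4G and EIF2 BETA), histones 2 of 6 (AT4G40030 and HTA7) and RNA-binding proteins 1 of 8 (CRB). Of 4 non-coding RNA genes 2 were near-empty, AT1G05163 and AT4G04565, and of 12 aquaporins 0. The whole set held 881 protein-coding genes, 2 long non-coding RNAs, 2 transcribed pseudogenes and 1 pseudogene. Gene spans had a median of 3114 bases (middle 50% 2308 to 4274) against 2849 bases (2004 to 4148) for the other highly expressed genes.

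The genes themselves were lower in xrn3-8 more often than higher, as were highly expressed genes outside the set. All 886 passed the filter on low counts. By edgeR's quasi-likelihood test with Benjamini-Hochberg adjustment over 20653 genes, 79 were higher (8.92%) and 309 lower (34.9%). Over all genes tested, 15.9% were higher and 17.4% lower. Of the 3153 other highly expressed genes 11.4% were higher and 36.0% lower, so the share of lower genes is near that of genes of the same level. The median log2 fold change was -0.13 for the set, -0.14 for the others and 0.00 over all genes. Of the 235 genes whose window was at 0 throughout, 27 were higher and 76 lower. Of the 163 without a near neighbour, 10 were higher and 68 lower. Total counts in place of TMM factors moved the median of all genes to 0.16 and gave 169 higher and 185 lower (47.7% in place of 20.4% of calls higher). Without Col-0 replicate 3, 51 were higher and 259 lower.

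**Figure D4:**
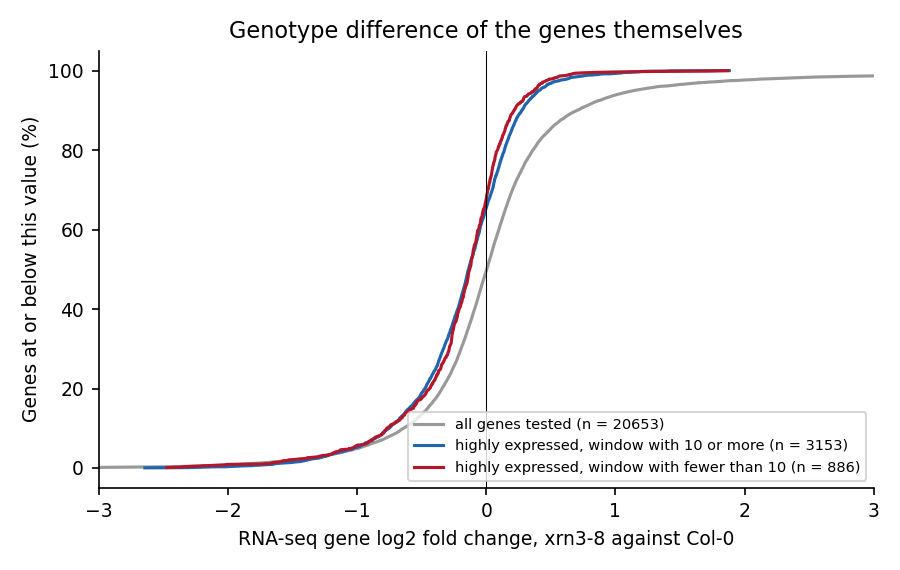
Cumulative percentage of genes by RNA-seq log2 fold change of the gene, xrn3-8 against Col-0, for all genes tested, highly expressed genes with 10 or more window counts and those with fewer than 10. The last lie close to each other, with medians of -0.14 and -0.13, to the left of all genes at 0.00.

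The genes with near-empty windows that fell most included parts of the circadian clock and of jasmonate synthesis. AT1G22690 fell from 82.4 (79.3 to 85.3 over the 3 libraries) to 16.5 (12.8 to 19.2) CPM, a log2 fold change of -2.47 (SE 0.13, edgeR adjusted p = 1.0e-06). The related clock transcription factor genes CCA1 and LHY, which act in the morning, fell by 2.36 (SE 0.11) and 2.33 (SE 0.13) on the log2 scale. CCA1 held 129, 99.9 and 131 CPM in Col-0 against 25.7, 28.3 and 23.6 in xrn3-8, and its window held 1 count. LHY held 70.2, 56.2 and 79.8 CPM in Col-0 against 16.3, 14.2 and 15.03 in xrn3-8, and its window held none. The groups did not overlap for either gene. The jasmonate synthesis lipoxygenase genes LOX3 and LOX4 fell by 2.19 (SE 0.17) and 2.09 (SE 0.22), and B120 by 2.23 (SE 0.16). LOX3 stood at 276, 402 and 407 CPM in Col-0 against 101, 72.0 and 92.6 CPM in xrn3-8. At the lower xrn3-8 level of these genes fewer window counts can be seen.

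Of the 886 genes of the set, 3 rose at least 2-fold and 50 fell at least 2-fold. The numbers were 23 and 163 of the 3153 other highly expressed genes, and 1107 and 870 of all 20653 genes tested. COR15B, a cold-induced chloroplast protein gene, rose from 96.7, 103.8 and 68.2 CPM to 360, 405 and 328 CPM (log2 fold change 1.87, SE 0.15, edgeR adjusted p = 1.1e-05). Its window held 1 count, and COR15B overlaps an annotated gene. AT4G30650 and AT2G25730 rose by 1.71 (SE 0.19) and 1.23 (SE 0.08). PHS2, a cytosolic starch-type phosphorylase, rose from 264 ± 30.5 to 588 ± 34.2 CPM with 5 window counts. Its fitted log2 fold change, which uses TMM factors where CPM values do not, was 0.9999 (SE 0.10). PHS2 is therefore not among the 3 genes. NRPB1, the largest subunit of RNA polymerase II, rose from 115, 118 and 133 CPM to 274, 233 and 222 CPM (log2 fold change 0.84, SE 0.10, edgeR adjusted p = 0.00016), with no window count in any library. The ubiquitin ligase gene UPL2 rose from 347 ± 4.96 to 647 ± 54.7 CPM, with 8 window counts, all in xrn3-8. These are genes whose RNA rose while nearly nothing was counted in their window.

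Of the most heavily read genes of the set, CAT2 fell by 1.18 (SE 0.11, edgeR adjusted p = 2.3e-05), PMDH2 by 0.67 (SE 0.08), CRB by 0.67 (SE 0.09), SBPASE by 0.62 (SE 0.09) and MS2 by 0.64 (SE 0.09). SHM1 had -0.31 (SE 0.09, adjusted p = 0.029) and CA1 -0.35 (SE 0.11, adjusted p = 0.027). SHM1 kept its call without xrn3-8 replicate 2 and lost it without any other library, with adjusted p up to 0.131. That of CA1 was lost in 4 (without Col-0 replicate 2 or 3 or xrn3-8 replicate 1 or 3), with values up to 0.134. GHS1 had -0.50 (SE 0.13, adjusted p = 0.016), which was 0.068 without Col-0 replicate 2. SHD, RP1, RR3, CPN60A, CR88, GSH1, LIL3:2, CESA2, PPC1 and GLX1 did not pass, with log2 fold changes between -0.17 and 0.26. With total counts SHD, PPC1 and GLX1 passed, with 0.28, 0.32 and 0.34 (edgeR adjusted p = 0.044, 0.018 and 0.020), while SHM1, CA1 and GHS1 did not, with -0.16, -0.20 and -0.34 (adjusted p = 0.186, 0.124 and 0.0608).

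The classes hold few genes of the set, and their calls are read beside the same classes among other highly expressed genes and beside the 15.9% higher and 17.4% lower of all genes. Of the 5 photosynthesis genes with near-empty windows 4 were lower and 0 higher, against 47 and 0 of 54 outside the set. The summed leaf markers, which are largely photosynthesis genes, were lower in the same libraries (12440 to 14370 CPM in xrn3-8), and the part of leaf content in these calls was not tested. Of the 7 transcription factors 6 were lower and 1 higher, against 20 and 6 of 44. Of 11 redox and stress genes, 5 fell and 1 rose, against 16 and 9 of 52. Of 9 heat shock proteins and chaperones 2 were higher and 0 lower, against 3 and 2 of 14. Of 10 ubiquitin and proteasome genes 2 and 0 were, against 8 and 8 of 51. Of 5 genes matched as cytoskeleton, SAC9 among them, 2 were higher and 0 lower, against 3 and 4 of 17. The tubulin gene TUA4 rose by 0.32 (SE 0.10). Of 5 cytosolic ribosomal protein genes 1 was lower, against 11 of 25, and of 4 cell wall genes 2, against 11 of 35. In the set 0 genes of either class were higher. These differences were not tested. EIF4G, a scaffold of translation initiation, rose by 0.63 (SE 0.08, edgeR adjusted p = 0.00023). EIF2 BETA fell by 0.25 (SE 0.08, edgeR adjusted p = 0.042), but its libraries overlapped. They held 114.9, 99.9 and 111.7 CPM in Col-0 against 92.0, 105.5 and 107.9 CPM in xrn3-8. LQY1 fell from 97.1 ± 6.03 to 54.0 ± 6.02 CPM and the histone gene AT4G40030 from 274 ± 19.6 to 161 ± 7.59 CPM. HTA7 and both non-coding genes did not pass.

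Genes next to the set were also examined. Their 1747 immediate neighbours on either side include 49 genes of the set itself. Of 1146 tested, 229 were higher (19.98%) and 196 lower (17.1%) by edgeR, where 15.9% and 17.4% of all genes were. Among 3924 tested neighbours of the other highly expressed genes 18.0% were higher and 18.0% lower. The difference between these shares was not tested. With total counts, 352 neighbours of the set were higher and 117 lower (75.1% in place of 53.9% of calls higher). At least 1 immediate neighbour was higher beside 208 of the 766 genes of the set that had a tested one (27.2%), against 688 of 2744 other genes (25.1%). Neighbours that rose by at least 2-fold stood beside 86 (11.2%) and 271 (9.88%).

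Some genes that were silent or nearly so in Col-0 filled in xrn3-8 next to a gene of the set. Whether the near-empty window lies on the side of that neighbour is not known. The largest rise was that of ATSAC1B (AT5G66020), a phosphoinositide phosphatase gene, with 0 counts in every Col-0 library and 156, 132 and 208 in xrn3-8, at least 156-fold higher. It lies 167 bases from ATGRIP (AT5G66030), a Golgi protein gene of the set at 91.4 ± 3.90 CPM in Col-0, whose window held 1 count over all libraries. The gene on its other side, AT5G66010, held 2.08 CPM, and its window went from 2 to 14 counts. TGG3, a myrosinase-related gene, had 0, 0 and 2 counts in Col-0 against 133, 83 and 134 in xrn3-8, a ratio of 165 (exact 95% interval 45.4 to 1369). This interval pools the libraries of each group and covers counting error only. Its fitted log2 fold change of 7.01 was 9.82 without Col-0 replicate 3. TGG3 lies 205 bases from BIR1, a receptor kinase gene of defence signalling at 248 ± 7.18 CPM, whose window held 1 count in Col-0 against 4 in xrn3-8. On the other side of TGG3, 594 bases away, the window of AT5G48370 went from 2 to 17 counts.

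AT5G13380 went from 1, 0 and 0 to 44, 37 and 59 counts, a ratio of 132 (exact 95% interval 23.3 to 5255), and its fitted log2 fold change of 6.48 was 8.46 without Col-0 replicate 1. It lies 175 bases from AT5G13370, whose window held 0 counts in Col-0 against 4 in xrn3-8. NEF1, 262 bases away on the other side, had a window that went from 1 to 20 counts. AT5G15620 went from 0 counts to 15, 18 and 28, at least 19.2-fold higher, at 176 bases from AT5G15610, whose window was at 0. IRX6, 387 bases away on the other side, had a window with 0 counts in Col-0 and 1 in xrn3-8. NET2B, an actin-binding protein gene, went from 0 to 24, 29 and 45 counts, at least 30.8-fold higher, at 333 bases from AT1G09730, whose window held 1 count in Col-0 and 0 in xrn3-8. On its other side AT1G09710 is closer, at 56 bases, and the window of that gene went from 1 to 4 counts. AGL29, a MADS-box gene, went from 0 to 11, 15 and 16 counts, at least 13.2-fold higher, but lies 1823 bases from its partner AT2G34460 and overlaps AT2G34450, whose window went from 1 to 24 counts. For none of these 6 neighbours do the data say from which side the reads came. All 6 rose in edgeR's test with adjusted p of at most 0.0030. These folds use counts per nuclear gene counts with a floor of 3 counts over the Col-0 group. The folds and intervals pool the libraries of a group, so they cover counting error and not the spread between libraries. Of the heavily read partners, ATGRIP, AT1G09730 and AT2G34460 also overlap another annotated gene. The log2 fold changes of the partners themselves ran from -0.77 for AT2G34460 to 0.38 for AT5G13370. Reads over a neighbour may be counted in that neighbour whatever transcript they come from, though the use of strand in counting is not given. An empty window of the heavily read gene therefore does not show that no RNA extended beyond that gene.

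**Figure D5:**
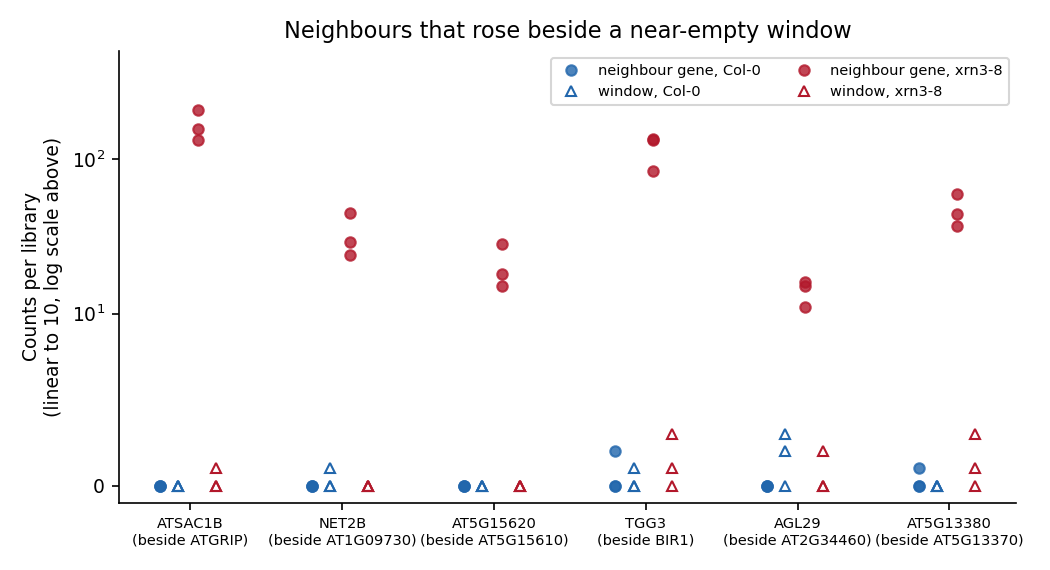
Counts per library, linear to 10 and logarithmic above, for the 6 neighbours that rose most (filled circles) and for the window of the highly expressed gene beside each (open triangles), with Col-0 in blue and xrn3-8 in red. The neighbours hold 0 to 2 counts per library in Col-0 and 11 to 208 in xrn3-8, while no window exceeds 3 counts in a library.

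Small RNA was counted over the genes themselves. In xrn3-8, 538823, 573638 and 706264 small RNA counts lay on XRN3 itself, with 276, 790 and 350 in Col-0. Over 6 libraries of 14-day seedlings the median gene of the set held 26 small RNA counts, against 37 for the other highly expressed genes and 13 over all genes tested by RNA-seq, and 199 of 886 passed the filter. By edgeR's test 16 of these were higher (8.04%) and 3 lower (1.51%) in xrn3-8, where 6.21% and 1.01% of all 9048 genes tested were, so both shares are near the background. Of the other highly expressed genes 122 of 1116 were higher and 4 lower. Of 55 tested genes whose window was at 0 throughout, 1 was higher and 0 lower. In the set, 7 genes were higher without Col-0 replicate 1, 6 without replicate 2 and 7 without replicate 3. Lower genes numbered 0, 0 and 1 in the same order, 1 without xrn3-8 replicate 2 and 5 without xrn3-8 replicate 3.

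The largest small RNA rises were at AT1G77930, with 3, 2 and 6 counts in Col-0 against 183, 190 and 378 in xrn3-8, and at APG2, a thylakoid protein translocase subunit, with 1, 1 and 5 and 103, 113 and 208. Their log2 fold changes were 6.004 (SE 0.40, edgeR adjusted p = 0.00021) and 5.81 (SE 0.47, edgeR adjusted p = 0.00051), and APG2 reached 6.98 and AT1G77930 6.58 without Col-0 replicate 3. Both overlap an annotated gene. SOT17, a sulfotransferase of glucosinolate synthesis, rose from 4, 3 and 2 counts to 18, 22 and 34, and AT5G25100 from 10, 4 and 4 to 50, 43 and 42. The rise of AT5G22340 (3.66, SE 0.74, edgeR adjusted p = 0.026) was not called in 4 of 6 fits without 1 library, with adjusted p up to 0.12 (without any Col-0 library or xrn3-8 replicate 2). ABH1, a subunit of the nuclear cap-binding complex, fell from 62, 32 and 25 counts to 12, 9 and 11. SIR, the sulfite reductase, fell by 0.57 (SE 0.10) and ARGAH2, an arginase, by 0.47 (SE 0.10). The calls of ABH1, SIR and ARGAH2 were lost in 3, 3 and 5 of the 6 fits without 1 library. With total counts SIR and ARGAH2 did not pass (adjusted p = 0.207 and 0.349), and ARGAH2 did not with DESeq2 (0.0893) or with no filter (0.0769).

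None of the 886 near-empty windows reached the filter for a test of the windows, which their choice made certain. Over all 2925 testable windows, xrn3-8 was higher at 49.3% and lower at 1.61%. Beside the other highly expressed genes 1120 windows could be tested, of which 721 were higher and 9 lower, with a median log2 fold change of 1.71. Of the 342 among them with no gene within 500 bases, 272 were higher and 2 lower. DESeq2 with its own size factors, which centre the windows on themselves, gave 447 higher and 60 lower (88.2% in place of 98.8% of calls higher). A window could pass the filter through the xrn3-8 libraries alone, so these shares describe only the windows that passed. Of the 3153 windows, 2033 were not tested, and 397 were at 0 in all 3 Col-0 libraries. With no filter 1415 were higher and 9 lower.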

How the data were processed

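The authors deposited whole-number read counts per gene and window for each RNA-seq library and per gene for each small RNA library, not normalized. HISAT2 (RNA-seq), Bowtie (small RNA), HTSeq, DESeq2 and bedtools and the build TAIR10 are listed, per the submitters' processing notes. Settings, use of strand and window bounds are not given. Unassigned tallies, 21.6% to 25.4% of the window tables and 74.6% to 77.1% of the small RNA tables, were left out.

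Genes, windows and small RNA were tested with edgeR 4.0.16 (R 4.3.3) by the quasi-likelihood test, two-sided, Benjamini-Hochberg adjusted over all features tested, at a threshold of 0.05. Low features were removed with filterByExpr at a minimum count of 10. TMM factors scaled genes, and windows took the factors of the gene tables. CPM values were scaled to nuclear totals without these factors, so they can differ from the fold changes, even in direction. CPN60A held 749 CPM in Col-0 against 771 CPM in xrn3-8, with a fitted log2 fold change of -0.11. The standard error is the log2 fold change divided by the square root of F. DESeq2 1.42.0 and other settings were alternatives. The fits were also run on simulated data with the same spread for every feature. The real libraries can differ from that setting, and no result here rests on it. Libraries of a group differed by far more than counting noise, so none was counted as a repeat. The p-values set the genotype difference against the spread between these libraries.

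Names and distances came from a RefSeq table of TAIR10.1, which matched 36899 of 37184 identifiers. It gives no descriptions, so gene classes were matched to names and synonyms, and no strand, so the side of the windows could not be settled. The windows, gene classes and tests were chosen with earlier results of these data known. The rule for named genes took the most heavily read genes of the set, those without a near neighbour, those nearest the limit, the largest changes of the genes, their neighbours and their small RNA, and the first of each class. The counts of the assembled loci themselves were not tested. Their table supplied the gene counts.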

Additional observations from a re-analysis of the deposited data

How the results depend on the processing

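The size of the set follows its limits. It was 1920 at a gene level of 25 CPM, 324 at 100 CPM and 293 with levels as a share of all gene counts. It was 235 with windows at 0, 533 under 5 counts, 1500 under 20 counts, and 838 to 1189 without 1 library. Genes of the set were 51 to 85 higher and 233 to 289 lower without 1 library, and 169 and 185 with total counts. Their neighbours were 178 to 231 higher and 154 to 184 lower without 1 library, and 352 and 117 with total counts. Small RNA calls over the set were 6 to 16 higher and 0 to 5 lower without 1 library, and 33 were higher with no filter. Other highly expressed genes had 675 to 943 higher and 6 to 9 lower windows without 1 library, 447 and 60 with DESeq2, 1415 higher with no filter and 5 lower with total counts. The causes were not tested.

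The replicate numbers are not shown to pair the libraries. Same-numbered RNA-seq libraries correlated at 0.056, 0.181 and 0.142 in their deviations from the group means, each library best with its own number, and small RNA libraries at -0.506, 0.0307 and -0.180. With the replicate block 81 genes of the set were higher and 325 lower, 235 and 212 of their neighbours, 4 and 0 for small RNA, and 677 and 8 for the other windows. Among named genes, RR3 gained a call under the block (0.28, adjusted p = 0.0316), and the small RNA calls of SOT17 (adjusted p = 0.0545), AT5G22340 (0.0693), ABH1 (0.0604), SIR (0.0764) and ARGAH2 (0.126) were lost.

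Of 550 recomputed values of single genes, 496 kept direction and side of the threshold, 38 lost the call, 5 gained it and 11 changed sign. The sign changes were those of RP1 (0.0529), CPN60A (0.0398) and LIL3:2 (0.0418) with total counts. Without 1 library CR88 ranged from -0.0266 to 0.1227 (negative without Col-0 replicate 3 or xrn3-8 replicate 2), and CESA2 from -0.0248 to 0.1084 (negative without xrn3-8 replicate 1 or 2). The window of LHCB3 had 0.12 with total counts and -0.5482 to 0.2282 without 1 library (positive without Col-0 replicate 1 or xrn3-8 replicate 1 or 2). With DESeq2 the LHCB3 window was -0.91 and called (adjusted p = 0.0483). RP1, CPN60A, LIL3:2, CR88 and CESA2 were not called under any setting run. Genes of the set with a gene within 250 or 1000 bases numbered 612 and 812, and 723 within 500. Depth limits the windows at 0, which allow up to 3 counts each.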
